A study of Homo sapiens with 14 samples.

Results

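Glutamine and aspartate metabolism in SCC23 cells was followed through the transcript counts of 8 genes, GLS2, GLUD1, GLUL, SLC1A5, GOT1, GOT2, GPT2 and ASS1. They were taken by symbol from 59471 counted gene names, 39032 of them with reads in some library. All 8 symbols had a row, and the values were read in all 14 RNA-seq libraries.

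SCC23 is an established head and neck squamous cell carcinoma (HNSCC) line, and KMT2D encodes a histone methyltransferase that places the enhancer mark H3K4me1. Cells received a Cas9 plasmid with a GFP reporter. It carried a guide to the bacterial LacZ gene for KMT2D-WT cells and a guide to KMT2D for KMT2D-KO cells. Both genotypes had therefore been exposed to Cas9, GFP sorting and further culture. The lines KO1 and KO2 came from different guides and were GFP-sorted populations, for which no cloning from single cells was described. Cells were kept in high glucose (+Glc) or deprived of glucose for 6 h (-Glc), and each condition held 3 KMT2D-WT and 4 KMT2D-KO libraries from 2 experiments. Experiment 1 gave 1 KMT2D-WT library per condition and experiment 2 gave 2, while KO1 and KO2 gave 1 library each per condition and experiment.

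Glutamine enters cells mainly through transporters such as SLC1A5 and is turned into glutamate by glutaminases, of which GLS2 is one. GLUL, glutamine synthetase, runs in the opposite direction and joins ammonia to glutamate. Glutamate then gives 2-oxoglutarate to the citric acid cycle, either through GLUD1, glutamate dehydrogenase, or through transaminases. The transaminases GOT1, in the cytosol, and GOT2, in mitochondria, exchange glutamate and aspartate and belong to the malate-aspartate shuttle, and GPT2, in mitochondria, exchanges glutamate and alanine. Aspartate serves nucleotide and protein synthesis, and ASS1, argininosuccinate synthase, joins it to citrulline on the way to arginine.

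Total counts ranged from 15669154 to 62968057 per library. KMT2D itself lay between 266 and 279 CPM (read counts scaled to a common library size) in KMT2D-WT libraries with glucose and between 182 and 373 CPM in the libraries labelled KMT2D-KO. The difference was -0.02 ± 0.25 on the log2 scale (SE, edgeR adjusted p = 0.967). It pools lines that lay on either side of KMT2D-WT. In experiments 1 and 2, KO1 was at 182 and 184 CPM and KO2 at 323 and 373 CPM. Without glucose, KMT2D lay between 231 and 239 CPM in KMT2D-WT and between 19.9 and 190.2 CPM in KMT2D-KO libraries (log2 difference -0.90 ± 0.60, adjusted p = 0.247). Small Cas9 edits can leave the transcript in place, so these counts do not show whether the protein was made, which the study checked on DNA and by western blot. Without glucose, the experiment 2 libraries labelled KO1 and KO2 were both nearer to KO2 than to KO1 over 11 genes that separated the lines with glucose. Their mean log2 distances were 0.41 and 0.43 from KO2 and 4.25 and 4.23 from KO1, so the label of that KO1 library is in doubt. The pairs of -Glc libraries of experiment 2 lay close together, with a chi-square of 1.71 per gene for KMT2D-WT and 1.78 for KMT2D-KO, against 25.9 to 83.0 in the other pairs. The experiments are described as independent and KO1 and KO2 were edited separately, but no source used here says whether the paired libraries of experiment 2 came from separate cultures. For those, p-values measure a spread that may be partly technical. Of 8 squamous epithelial markers, 7 were at 1 CPM or more in every library, and KRT6A had no count in 3. Their summed level was 760 to 803 CPM in KMT2D-WT and 510 to 998 CPM in KMT2D-KO with glucose, and 870 to 879 and 959 to 2482 CPM without. The 4 immune markers summed to at most 0.290 CPM, with MS4A1 at 0 in all 14 libraries and PTPRC in 13, and the 3 endothelial markers to at most 4.11 CPM. The 4 fibroblast markers summed to 5.73 to 7.04 CPM in KMT2D-WT and 12.4 to 20.7 CPM in KMT2D-KO with glucose, and to 3.17 to 5.53 and 7.20 to 13.98 CPM without. COL1A2 was at 0 in 9 libraries, LUM in 10 and DCN in 6. The fibroblast sums lay higher in KMT2D-KO than in KMT2D-WT libraries in both conditions, and the squamous and endothelial sums without glucose only, while the other ranges overlapped. The part of these markers in the results was not tested.

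The members lie on 6 chromosomes of GRCh38, as the count files give them. SLC1A5 spans chr19:46774883-46788594, GLUL chr1:182378098-182392206, GLUD1 chr10:87050202-87094843, GLS2 chr12:56470944-56488414, GOT1 chr10:99396870-99430624 and GOT2 chr16:58707131-58734342, all on the minus strand. GPT2 spans chr16:46884362-46931289 and ASS1 chr9:130444961-130501274, both on the plus strand. The counting used all exons of a gene and ignored strand, so reads in overlapping exons of 2 genes cannot be placed. Such overlap covered 82.8% of the exon bases of GLS2 (AC097104.1 and SPRYD4), 23.8% of SLC1A5, 12.3% of GLUD1 (SHLD2) and 4.32% of GOT2 (AC106793.1). GLUL, GOT1, GPT2 and ASS1 had none. Pseudogene copies by name took 5.36% of the reads of ASS1 and its 14 copies together, 1.77% for GLUD1, 1.29% for GOT2 and 0.0186% for GLUL, so the levels of ASS1 carry that uncertainty.

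The stretches upstream of 3 members are shown because ASS1 and SLC1A5 had the largest differences between genotypes and GOT1 had none that passed the test. Each is the 250 bases before the RefSeq transcription start (GRCh38.p14, in gene orientation), from a table that held 7 of the 8 members. ASS1, SLC1A5 and GLUL had 2, 3 and 2 RefSeq starts, and only the start nearest that of the counted gene was searched. Capitals mark matches, on either strand, to CACGTG, the E-box that MYC and TFE-type factors can bind, or to TGATGNAA, the core of the element that C/EBP-ATF pairs can bind. The first stretch lies at chr9:130444711-130444960 (plus strand), the second at chr19:46788595-46788844 and the third at chr10:99430625-99430874 (both minus strand).
ASS1: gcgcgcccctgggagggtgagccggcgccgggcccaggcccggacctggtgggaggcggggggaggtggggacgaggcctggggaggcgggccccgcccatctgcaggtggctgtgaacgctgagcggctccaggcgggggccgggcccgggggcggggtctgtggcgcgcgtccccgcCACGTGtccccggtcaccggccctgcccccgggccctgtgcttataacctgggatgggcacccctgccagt
SLC1A5: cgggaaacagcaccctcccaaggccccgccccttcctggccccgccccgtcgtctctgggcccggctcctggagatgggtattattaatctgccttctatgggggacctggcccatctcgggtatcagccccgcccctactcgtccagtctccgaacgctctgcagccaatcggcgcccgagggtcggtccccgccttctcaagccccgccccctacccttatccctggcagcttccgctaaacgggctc
GOT1: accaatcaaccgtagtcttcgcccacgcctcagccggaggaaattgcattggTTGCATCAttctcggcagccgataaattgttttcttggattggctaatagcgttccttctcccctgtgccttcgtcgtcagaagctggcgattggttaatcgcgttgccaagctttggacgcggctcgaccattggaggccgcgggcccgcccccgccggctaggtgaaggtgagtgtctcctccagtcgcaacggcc

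CACGTG began 71 bases before the start of ASS1, and the stretch of none of the other 6 members held it. Of 34943 stretches of the same length upstream of all RefSeq starts, 6.32% held CACGTG. TGATGNAA was matched on the opposite strand, beginning 198 bases before the start of GOT1, and in the searched stretch of no other member. Of all stretches, 3.15% held it. These are matches of letters. No binding was measured here.

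Levels were compared between members per exon length. In KMT2D-WT cells with glucose, GOT2 (mean 52.6 CPM per kb), GOT1 (44.5), GLUD1 (35.2) and SLC1A5 (28.4) led, and neighbours in this order overlapped in their ranges. GPT2 followed at 10.3, GLUL at 7.60 and ASS1 at 2.94 CPM per kb, each apart from its neighbours. GLS2 was far below at 0.0877 CPM per kb. In KMT2D-KO cells with glucose the order was GOT2 (67.6), SLC1A5 (45.6), GOT1 (40.5), GLUD1 (32.1), GPT2 (14.1), ASS1 (9.30), GLUL (4.88) and GLS2 (0.113 CPM per kb). The ranges of SLC1A5, GOT1 and GLUD1 overlapped there from one to the next, and the other neighbours were apart. Per length, ASS1 stood below GLUL in KMT2D-WT cells and above it in KMT2D-KO cells. This order rests on the division by exon length (12638 bases for GLUL and 3018 for ASS1), since in CPM the mean of GLUL was above that of ASS1 in all 4 groups. The same swap per length was seen without glucose, where ASS1 was at 2.36 and GLUL at 7.29 CPM per kb in KMT2D-WT cells and at 14.4 and 5.30 in KMT2D-KO cells. Counts behind these levels ranged from 157 to 2109 per library for ASS1, from 959 to 18023 for the other 6 apart from GLS2, and from 0 to 40 for GLS2.

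**Figure D1:**
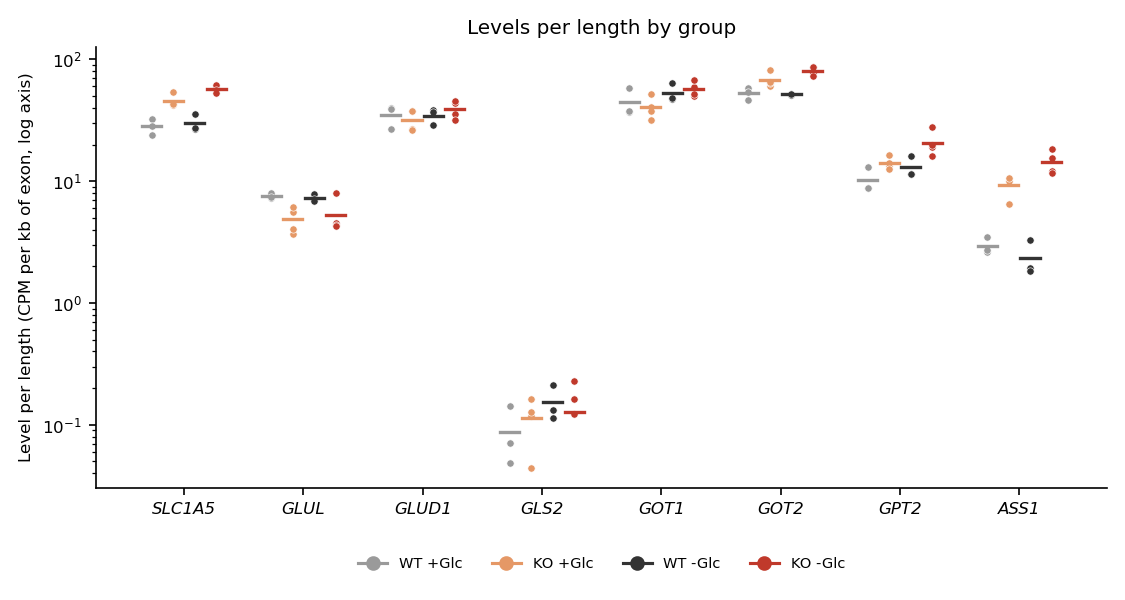
Level per kb of exon of each gene on a log axis, with 1 point per library and a bar at the mean of each group (3 KMT2D-WT and 4 KMT2D-KO libraries per glucose condition). GLS2 sits below 0.23 CPM per kb in every library, and its library without a count cannot be drawn on this axis. ASS1 lies below GLUL in KMT2D-WT groups and above it in KMT2D-KO groups.

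The first question was which members differed by genotype. With glucose, 5 of 8 passed the test. SLC1A5, GOT2, GPT2 and ASS1 rose in KMT2D-KO cells and GLUL fell. Of the 20423 genes tested, 24.7% were called, 13.0% higher and 11.7% lower in KMT2D-KO. Without glucose, 5 of 8 passed, all higher, namely SLC1A5, GLUD1, GOT2, GPT2 and ASS1. There 50.8% of the 16782 genes tested were called, 25.9% higher and 24.9% lower, so a count of 5 lies near this background. The median difference over the 8 members was 0.41 with glucose and 0.42 without on the log2 scale, against 0.02 and 0.00 over all genes tested. The members were chosen with earlier results of these data known, so this contrast is only a description and was not tested. The levels of the genotypes did not overlap for 4 members with glucose and 3 without, while the same held for 22.9% and 35.6% of all genes with a mean of at least 1 CPM. Without the library whose label is in doubt, 3 members passed without glucose, SLC1A5, GOT2 and ASS1. The same 3 passed when each close pair of experiment 2 was summed to 1 library. Of all genes called above without glucose, 6335 were called again without that library (16539 tested) and 2779 with close pairs summed (16867 tested). With experiment left out of the fit, 1 member (ASS1) passed with glucose, where 971 of 20423 genes were called. Without glucose, 3 members passed in that fit, where 3659 of 16782 genes were called. In bulk RNA, a change in how many cells express a gene and a change in RNA per cell cannot be told apart.

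**Figure D2:**
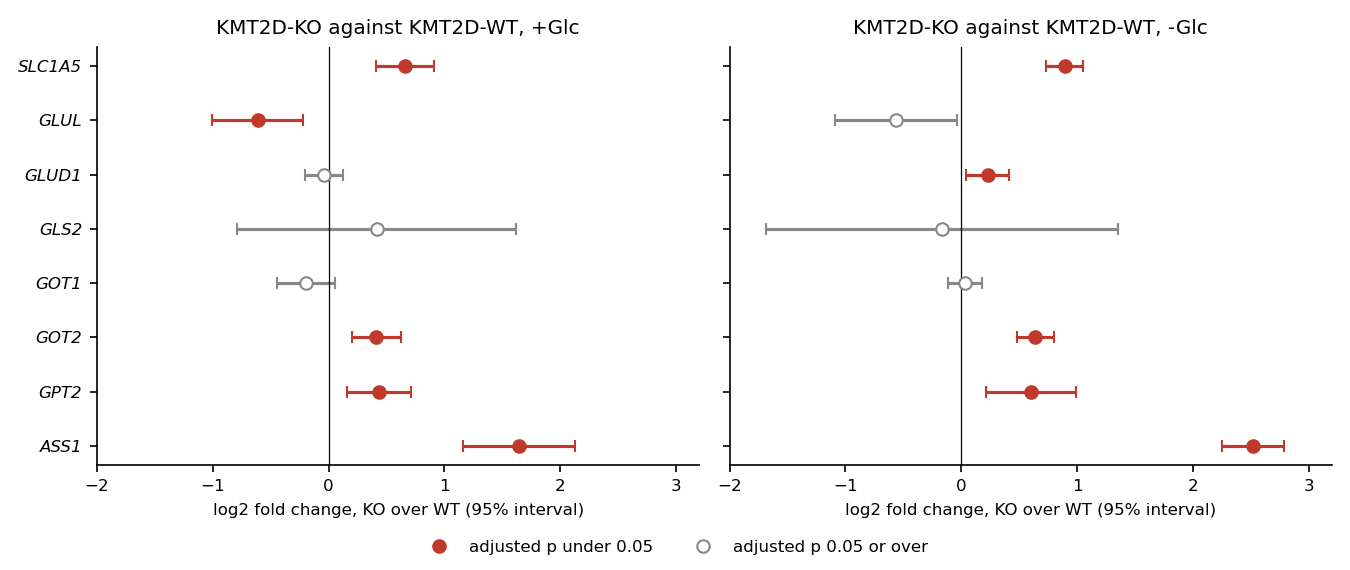
Difference between KMT2D-KO and KMT2D-WT (log2 fold change, horizontal axis) for each gene with its 95% interval from edgeR, with glucose on the left (3 against 4 libraries) and without on the right (3 against 4). Filled points had an adjusted p under 0.05. ASS1 lies farthest to the right in both, at 1.64 and 2.52.

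SLC1A5, the main glutamine carrier of many cancer cells, was higher in every KMT2D-KO library than in any KMT2D-WT library. With glucose it was at 109, 95.1 and 79.2 CPM in KMT2D-WT and at 144 (KO1) and 179 (KO2) CPM in experiment 1 and 142 (KO1) and 144 (KO2) CPM in experiment 2. The groups did not overlap, and SLC1A5 rose by 0.66 ± 0.11 on the log2 scale, or 1.58-fold (edgeR adjusted p = 0.00284). Without glucose it was at 118, 89.1 and 90.7 CPM in KMT2D-WT and at 196, 205, 186 and 177 CPM in KMT2D-KO, again without overlap. It rose there by 0.89 ± 0.07, or 1.86-fold (adjusted p = 1.19e-04). Within experiments, the ratio of the means of KMT2D-KO and KMT2D-WT was 1.48 and 1.64 with glucose and 1.69 and 2.01 without. The call with glucose was lost when the experiment was left out of the fit (adjusted p = 0.0578), and both calls were lost in experiment 1 alone, which has 1 KMT2D-WT library (0.253 and 0.419). No single library ended either call.

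GLUL, the enzyme that makes glutamine, was the one member that fell. With glucose it was at 91.8, 102 and 94.6 CPM in KMT2D-WT and at 71.2 (KO1) and 46.4 (KO2) CPM in experiment 1 and 77.9 (KO1) and 51.3 (KO2) CPM in experiment 2. All KMT2D-KO libraries were below all KMT2D-WT libraries, and GLUL fell by 0.61 on the log2 scale (SE 0.17, 0.654-fold, edgeR adjusted p = 0.0305). The lines differed among themselves, with KO2 at 0.652 times KO1 in experiment 1 and 0.658 times in experiment 2. Fitted alone against KMT2D-WT, KO1 gave -0.34 (adjusted p = 0.00825) and KO2 -0.95 (8.14e-07). The call was lost without the KMT2D-WT library of experiment 1 (0.169), either one of experiment 2 (0.108 and 0.0855), or KO2 of experiment 2 (0.0537).

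Without glucose, GLUL was at 98.5, 91.2 and 86.6 CPM in KMT2D-WT and at 102 (KO1) and 56.9 (KO2) CPM in experiment 1 and 55.1 and 54.1 CPM in experiment 2. KO1 of experiment 1 was above all KMT2D-WT libraries and the other 3 were below them. The difference of -0.56 ± 0.22 did not pass (edgeR adjusted p = 0.0710, 95% interval -1.09 to -0.04). Without KO1 of experiment 1, the difference was -0.77 and passed (edgeR adjusted p = 9.70e-12). The 3 KMT2D-KO libraries left were all nearer to KO2 than to KO1 over the 11 genes that separated the lines. Most libraries in that fit were the close pairs of experiment 2, so its p-value measures a spread that may be partly technical.

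GLUD1, which makes 2-oxoglutarate and ammonia from glutamate, followed the experiment more than the genotype with glucose. It was at 102 CPM in KMT2D-WT of experiment 1 and at 149.6 and 148 CPM in experiment 2, with KMT2D-KO at 101, 99.8, 142 and 142 CPM. The difference was -0.04 ± 0.07 (edgeR adjusted p = 0.734, 95% interval -0.20 to 0.12). Without glucose KMT2D-WT was at 109, 145 and 139 CPM and KMT2D-KO at 134, 120.4, 167 and 174 CPM. KMT2D-KO was higher within each experiment, by 1.17 and 1.20 times, while the pooled groups overlapped. The rise of 0.23 ± 0.08 passed narrowly (adjusted p = 0.0448). It was lost without any one KMT2D-WT library (0.114 to 0.192) or either KMT2D-KO library of experiment 2 (0.0902 without the one labelled KO1 and 0.125 without KO2).

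GLS2 was near the floor of detection. It had 0.295, 0.592 and 0.203 CPM in KMT2D-WT and 0.184, 0.678, 0.486 and 0.527 CPM in KMT2D-KO with glucose, and 0.544, 0.474 and 0.881 CPM and 0, 0.505, 0.949 and 0.670 CPM without. The groups overlapped in both conditions, over 237 counts in all, most of whose exon bases are shared with other genes. The differences, 0.41 ± 0.53 and -0.16 ± 0.64, did not pass (edgeR adjusted p = 0.627 and 0.847), and intervals of -0.79 to 1.62 and -1.68 to 1.35 leave room for changes of more than 2-fold either way without glucose.

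**Figure D3:**
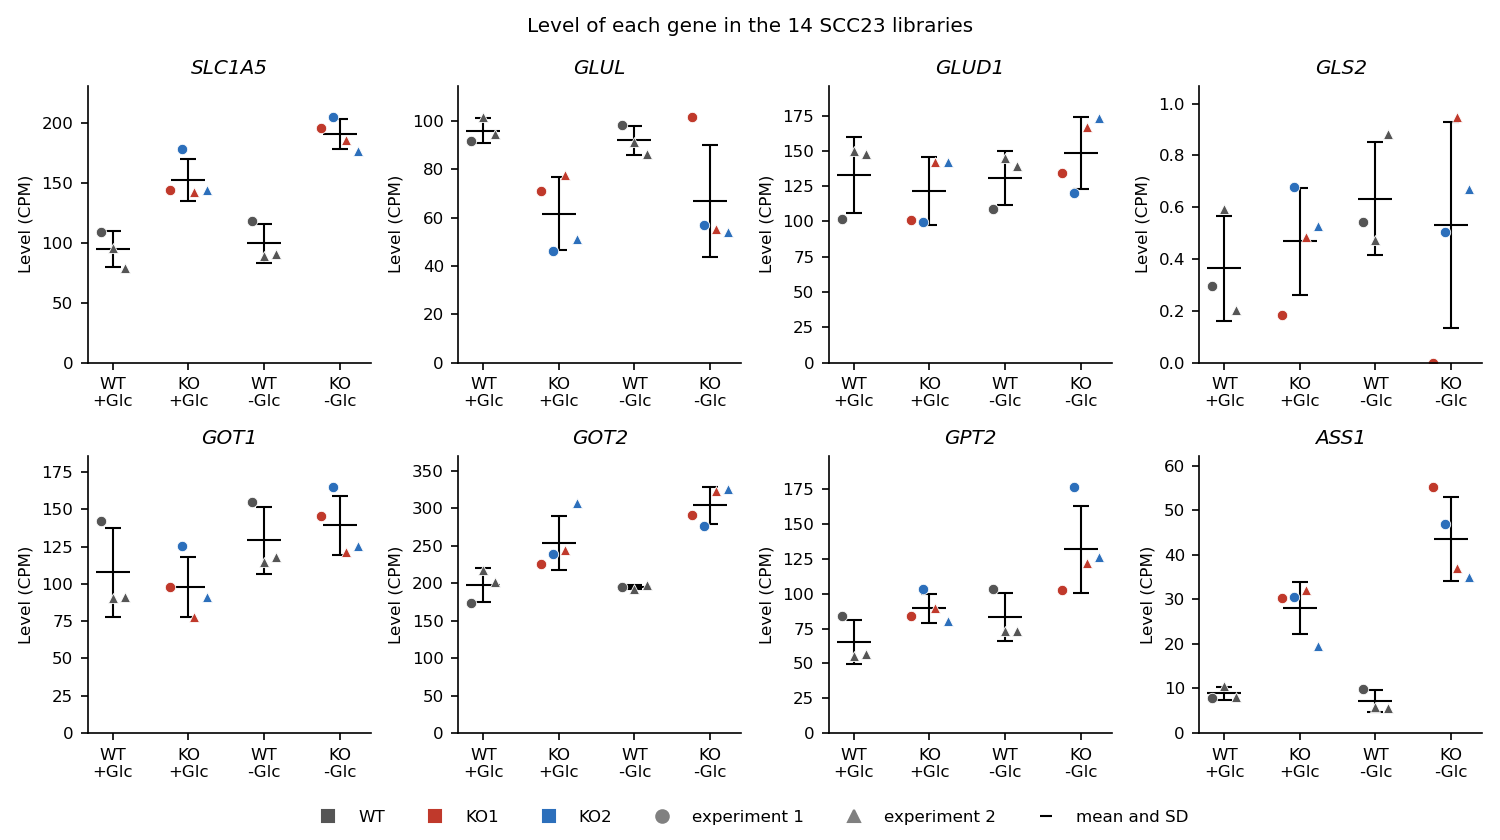
Level (CPM) of each gene in the 14 libraries by genotype and glucose, with circles for experiment 1, triangles for experiment 2, colours for KMT2D-WT, KO1 and KO2, and bars for the mean and SD of each group (n = 3 for KMT2D-WT and n = 4 for KMT2D-KO). SLC1A5, GOT2 and ASS1 are higher in every KMT2D-KO library of both conditions. In GLUL without glucose, KO1 of experiment 1 stands at 102 CPM above the other 3 KMT2D-KO libraries.

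The aspartate transaminases are given one after the other. GOT1, the cytosolic enzyme, was at 142, 90.3 and 91.1 CPM in KMT2D-WT and at 98.2, 126, 77.5 and 91.1 CPM in KMT2D-KO with glucose. Without glucose it was at 155, 115 and 118 CPM and at 145, 165, 121 and 126 CPM. The groups overlapped in both conditions, with differences of -0.20 ± 0.11 (edgeR adjusted p = 0.246, 95% interval -0.45 to 0.06) and 0.03 ± 0.06 (0.695, -0.12 to 0.18). KO1 fitted alone with glucose gave -0.35 (adjusted p = 0.00916), and KO2 alone gave -0.06 (0.623).

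GOT2, the mitochondrial enzyme, was at 173, 218 and 202 CPM in KMT2D-WT and at 225 (KO1), 239 (KO2), 245 (KO1) and 306 (KO2) CPM in KMT2D-KO with glucose. The groups did not overlap, and GOT2 rose by 0.41 ± 0.09, or 1.33-fold (edgeR adjusted p = 0.0122). The call was lost without the KMT2D-WT library of experiment 1 (0.119) or the second one of experiment 2 (0.0557). Of 11 other fits, 4 lost it, among them edgeR with experiment left out (0.277). Without glucose, KMT2D-WT libraries lay within a few CPM of each other at 195, 192 and 197 CPM, and KMT2D-KO was at 290.2, 276, 323 and 325 CPM. GOT2 rose there by 0.64 ± 0.07, or 1.56-fold (adjusted p = 3.94e-04), a call that no single library ended. It was lost in 1 of 9 other fits, experiment 1 alone, where KMT2D-WT has 1 library. The ratio of GOT2 to GOT1 per exon length ran from 0.785 to 1.56 in KMT2D-WT and from 1.23 to 2.17 in KMT2D-KO with glucose, with overlap when the experiments are pooled. Within experiments KMT2D-KO lay above KMT2D-WT, at 1.48 and 1.23 against 0.785 in experiment 1 and 2.04 and 2.17 against 1.56 and 1.43 in experiment 2. Without glucose it ran from 0.813 to 1.078 in KMT2D-WT and from 1.081 to 1.72 in KMT2D-KO.

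GPT2, the mitochondrial alanine transaminase, was at 83.7, 55.5 and 56.5 CPM in KMT2D-WT and at 84.2, 104, 89.7 and 80.5 CPM in KMT2D-KO with glucose. The KMT2D-WT library of experiment 1 reached the KMT2D-KO range, and within experiments the ratios of means were 1.12 and 1.52. GPT2 rose by 0.44 ± 0.12, or 1.35-fold (edgeR adjusted p = 0.0287). The call was lost without KO2 of experiment 1 (0.0558), KO1 of experiment 2 (0.0582) or either KMT2D-WT library of experiment 2 (0.121 and 0.115).

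Without glucose, GPT2 was at 103, 73.3 and 73.6 CPM in KMT2D-WT and at 103 (KO1) and 176 (KO2) CPM in experiment 1 and 122 and 126 CPM in experiment 2. KO1 of experiment 1 stood just below KMT2D-WT of the same experiment and the others were above. The rise of 0.60 ± 0.16, or 1.52-fold, passed (edgeR adjusted p = 0.0195). It did not without any one KMT2D-WT library (0.0591 to 0.0747), the library labelled KO1 of experiment 2 (0.0618) or KO2 of experiment 2 (0.0666).

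ASS1, which draws aspartate towards arginine, showed the largest difference of the 8. With glucose it was at 7.85, 10.6 and 8.19 CPM in KMT2D-WT and at 30.2 (KO1) and 30.5 (KO2) CPM in experiment 1 and 32.1 (KO1) and 19.5 (KO2) CPM in experiment 2. Every KMT2D-KO library was above every KMT2D-WT library, and ASS1 rose by 1.64 ± 0.21, or 3.13-fold (edgeR adjusted p = 8.47e-04). Without glucose it was at 9.93, 5.90 and 5.53 CPM in KMT2D-WT and at 55.2, 47.0, 37.0 and 34.9 CPM in KMT2D-KO. ASS1 rose there by 2.52 ± 0.11, or 5.73-fold (adjusted p = 3.63e-05). Within experiments the ratio of means was 3.87 and 2.74 with glucose and 5.14 and 6.29 without. With glucose the call was kept in all 7 fits that left out 1 library (adjusted p at most 0.0178) and in all 11 other fits, and without glucose it was lost only in experiment 1 alone (2.36, adjusted p = 0.130), where KMT2D-WT has 1 library.

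The next question was whether the KMT2D-KO effect differed between the glucose conditions. This was tested itself, as an interaction over all 14 libraries. ASS1 was the 1 of 8 members called, where 11.3% of the 18678 genes tested were called, 4.73% with a higher and 6.54% with a lower effect without glucose. Its KMT2D-KO effect was larger without glucose by 0.90 ± 0.25 on the log2 scale (edgeR adjusted p = 0.0377, 95% interval 0.36 to 1.44). Mean ASS1 was 8.88 ± 1.51 CPM (SD, n = 3) with glucose and 7.12 ± 2.44 CPM (n = 3) without in KMT2D-WT. In KMT2D-KO it was 28.1 ± 5.79 CPM (n = 4) and 43.5 ± 9.38 CPM (n = 4). The call was lost without any one of 7 libraries (0.0604 to 0.0995), namely the 3 KMT2D-WT libraries without glucose, the KMT2D-WT libraries of experiment 2 with glucose, and the KMT2D-KO libraries labelled KO1 and KO2 of experiment 2 without glucose. In experiment 1 alone it was 0.38 (adjusted p = 1.00), and with close pairs summed it was 0.85 (0.180). In experiment 2 the libraries with glucose were counted by both mates of a pair and those without were not, so glucose and counting cannot be told apart there. The label of the KO1 library of experiment 2 without glucose is also in doubt, so the mix of lines may differ between the conditions. With glucose, ASS1 in KO2 was at 1.01 times KO1 in experiment 1 and 0.607 times in experiment 2. The part of the line in this difference was not tested.

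The other 7 members did not pass. GLUD1 came nearest, at 0.29 ± 0.10 (edgeR adjusted p = 0.0692, 95% interval 0.08 to 0.50). The differences of SLC1A5, GOT1 and GOT2 were 0.26 ± 0.14, 0.25 ± 0.14 and 0.25 ± 0.12 (adjusted p from 0.207 to 0.278). GPT2 gave 0.20 ± 0.23, GLUL 0.07 ± 0.29 and GLS2 -0.57 ± 0.90.

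The last question was what 6 h without glucose did to these genes. It was asked in experiment 1, where KMT2D-WT, KO1 and KO2 each had 1 library with and 1 without glucose under the same counting. No member was called by edgeR (0 of 7 tested, where 1.10% of 16066 genes were called, 0.479% higher and 0.622% lower without glucose), 2 had an unadjusted p under 0.05 and DESeq2 called 0. GLS2 was under the filter on low counts. The values of all 7 lay higher without glucose in KMT2D-WT, KO1 and KO2. Over all lines together, the fitted difference was positive in 7719 of the 16066 genes tested. The share of all genes that lay higher in every line was not computed. ASS1 went from 7.85 to 9.93 CPM in KMT2D-WT, from 30.2 to 55.2 CPM in KO1 and from 30.5 to 47.0 CPM in KO2, a difference of 0.60 ± 0.18 (adjusted p = 0.120, 95% interval 0.20 to 0.99). GPT2 went from 83.7 to 103 CPM, from 84.2 to 103 CPM and from 104 to 176 CPM, a difference of 0.43 ± 0.16 (adjusted p = 0.187). It passed without KO1 kept in glucose (0.52, 0.0403).

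The remaining 5 members differed by 0.23 (GOT2 and SLC1A5), 0.24 (GLUD1), 0.28 (GLUL) and 0.34 (GOT1), with adjusted p from 0.262 to 0.421. In KMT2D-WT their levels were between 1.07 and 1.13 times as high without glucose. In KO1 this ratio was between 1.29 and 1.48, and in KO2 between 1.15 and 1.31. These libraries are also part of the comparisons of genotype above.

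**Figure D4:**
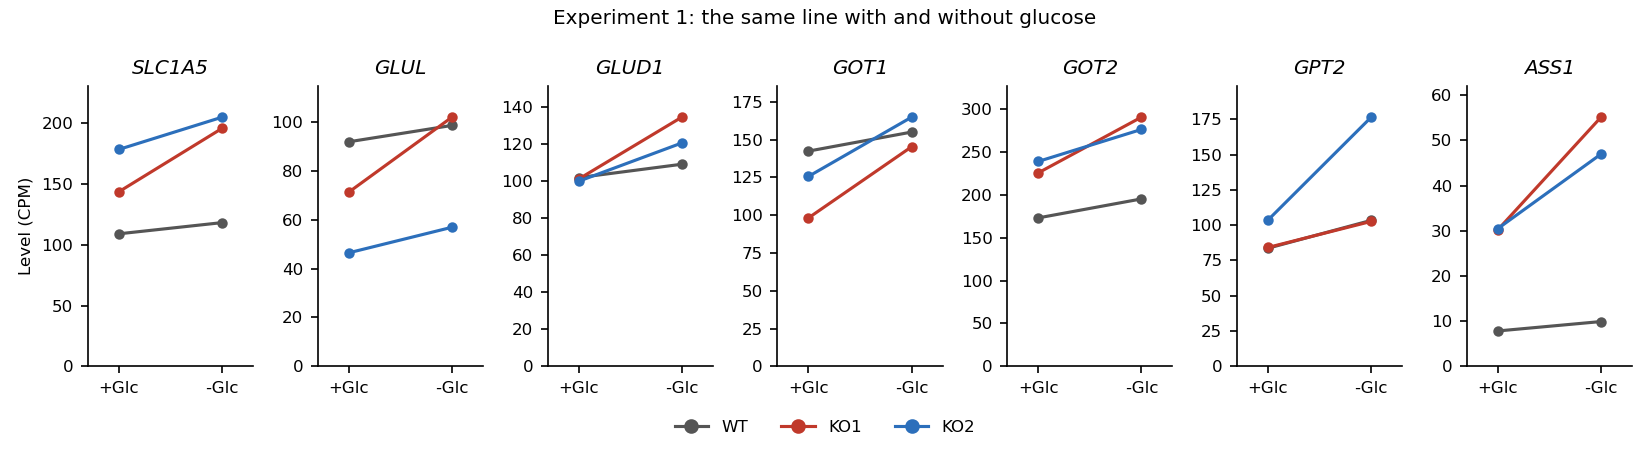
Level (CPM) with and without glucose in experiment 1 for the 7 genes tested, with 1 line each for KMT2D-WT, KO1 and KO2 and 1 library per point. Every line slopes upwards, and in ASS1 KO1 goes from 30.2 to 55.2 CPM while KMT2D-WT goes from 7.85 to 9.93 CPM.

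For each of the 7 members above 5 CPM on average, the genes most like it were sought among 10889 genes of at least that mean. Likeness was the Pearson correlation of log2 CPM over the 14 libraries after removing the mean of each glucose condition and experiment. It is given as a description, since the genotype difference remains in it and the libraries share experiments and lines. GSR was among the 2 genes most like ASS1 (r = 0.99). SLC1A5 was most like OBSL1 and FSTL1 (0.99 for both), and GOT2 most like CCT2 and SEC13 (0.99 for both). GPT2 was most like PSAT1 (0.98), the transaminase of serine synthesis, and SLC6A9 (0.97), a glycine transporter. GLUL was most like FNDC4 and NT5E (0.997 and 0.992), GLUD1 most like KDELR1 and HNRNPL (0.96 for both), and GOT1 most like SRSF9 and PCSK1N (0.96 and 0.95).

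Of 81 other genes of glutamine, glutamate, aspartate and asparagine metabolism and transport, 67 were tested with glucose, of which 19 rose and 2 fell in KMT2D-KO cells. That is 31.3% called against 24.7% of all genes. The list was written with earlier results of these data known, so its shares are only a description. The largest differences were in BCAT1, a cytosolic branched-chain transaminase (2.55 ± 0.21), ADSS1, which joins aspartate to inosine monophosphate (1.21 ± 0.32), NAGS, which makes N-acetylglutamate (-1.21 ± 0.17), and ABAT, which transaminates GABA (0.99 ± 0.23). Without glucose, 27 of 64 rose and 4 fell, or 48.4% against 50.8% of all genes. BCAT1 (2.43 ± 0.22), SLC1A3, an aspartate and glutamate transporter (2.13 ± 0.18), ADSS1 (1.93 ± 0.20) and SLC3A2, the heavy chain of several amino acid transporters (1.24 ± 0.06), led. The KMT2D-KO effect differed between conditions in 5 of 65, or 7.69% against 11.3% of all genes. It was larger without glucose for SLC1A3 (1.19 ± 0.25), the glutamine transporter SLC38A2 (1.04 ± 0.31) and SLC3A2 (0.61 ± 0.18). For CAD, which uses glutamine and aspartate for pyrimidines, the effect was lower without glucose (-0.61 ± 0.17). Glucose deprivation in experiment 1 called 2 of 64, or 3.1% against 1.10% of all genes. ASNS, asparagine synthetase, was higher (2.09 ± 0.34) and SLC1A3 lower (-1.09 ± 0.23). With experiment left out of the fit, 0 genes of the list were called with glucose, 7 without and 0 for the difference between conditions. Without the library of doubtful label, 20 genes of the list were called without glucose and 2 for the difference between conditions, and with close pairs summed 8 and 0 were. With each library left out in turn, the called genes of the list ran from 9 (without KMT2D-WT of experiment 1) to 23 with glucose and from 17 (without the first KMT2D-WT of experiment 2) to 48 (without KO1 of experiment 1) without. They ran from 0 to 11 for the difference between conditions (without KMT2D-WT or KO1 of experiment 1 kept without glucose) and from 1 to 5 for deprivation. Values in this paragraph are log2 differences ± SE, and those named had an edgeR adjusted p of at most 0.0494.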

How the data were processed

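Poly-A RNA-seq of SCC23 cells was analysed in 14 libraries, grouped by the labels. The authors aligned reads to GRCh38 with HISAT2 and counted them on Ensembl 102 genes with featureCounts 2.0.3 without strand, and deposited unnormalized counts per gene name. Both mates of a pair were counted in 4 libraries, those with glucose in experiment 2.

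Genes were kept by filterByExpr (minimum count 10) and scaled by TMM, and differences were tested with edgeR 4.0.16 (quasi-likelihood, Benjamini-Hochberg over all genes tested, threshold 0.05), with experiment as covariate for genotype and line as block for glucose. CPM used 1 TMM scaling over all libraries. Fits were tested on simulated data. DESeq2 1.42.0, RLE scaling, no filter, no block, single experiments and lines, and each library left out were alternatives. Differences between experiments correlated between genotypes (0.92 with and 0.83 without glucose). Depth was 15669154 to 62968057 counts per library, and the spread between libraries exceeds counting error. Named were all members, KMT2D, up to 4 called genes of the wider list per comparison with the largest difference, and the 2 genes most like each member above 5 CPM. Some genes under this rule are not reported here. The members and lists were chosen with earlier results of these data known. The ChIP-seq data were not analysed here.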

Additional observations from a re-analysis of the deposited data

Results flagged for a closer look

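In 3 of 16 groups of 4 KMT2D-KO libraries, 1 library stood apart from the other 3 by Dixon's criterion. Chance meets it in about 1 of 20 groups of like libraries, while these groups mix KO1 with KO2 and both experiments. GLUL without glucose was at 102 CPM in KO1 of experiment 1, against 54.1 to 56.9 CPM in the others. That library also had the lowest KMT2D level, 19.9 CPM. The other 3 were all nearer to KO2 than to KO1 over the 11 genes that separated the lines. With glucose, GLUL in KO2 was at 0.652 and 0.658 times KO1. The part of the line in this was not tested. SLC1A5 with glucose was at 179 CPM in KO2 of experiment 1, against 142 to 144 CPM. ASS1 with glucose was at 19.5 CPM in KO2 of experiment 2, against 30.2 to 32.1 CPM.

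The KMT2D-KO effect on ASS1 was larger without than with glucose by 0.90 on the log2 scale, by a test of the difference itself (edgeR adjusted p = 0.0377). The call was lost in 7 of the 14 fits that left out 1 library, and the difference was 0.38 in experiment 1 alone. ASS1 was 1 of 8 members called, where 11.3% of all genes tested were. In experiment 2, glucose and counting cannot be told apart. The KO1 label without glucose is in doubt there, so the mix of KO1 and KO2 may differ between conditions, which was not tested.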

How the results depend on the processing

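Of 516 log2 differences of members recomputed under alternatives, 440 kept their direction and their side of the threshold, 55 lost a call, 13 gained one and 8 changed sign. Genes called, with glucose, without glucose, for the difference between these effects, and for deprivation in experiment 1, numbered 5042, 8521, 2105 and 177, and members called 5, 5, 1 and 0. With no replicate block (experiment, or line for deprivation, left out), 971, 3659, 70 and 0 genes and 1, 3, 0 and 0 members were called. Experiment numbers are given by the labels, so the block was kept. DESeq2 without the block called 2577 genes and 2 members with glucose and 4821 genes without. DESeq2 with the block called 3473 genes and 2 members for the difference between effects and 631 genes for deprivation. RLE scaling called 2 members for the difference between effects and 329 genes for deprivation, and no filter 1158 genes for deprivation. Experiment 1 alone called 304 genes and 1 member with glucose and 0 genes and 0 members without glucose and for the difference between effects. Experiment 2 alone called 2336 genes and 3 members with glucose and 12888 genes without. Summing close pairs gave 2785 genes and 3 members without glucose and 258 genes and 0 members for the difference. For deprivation, all 14 libraries called 7631 genes and 3 members, and KMT2D-KO libraries of experiment 1 alone 1245 genes. Leaving out each library gave 2142 to 5048 genes and 2 to 5 members with glucose, 6031 to 12448 and 3 to 6 without, 788 to 4230 and 0 to 2 for the difference, and 162 to 1336 and 0 to 1 for deprivation. Signs changed only for members that had not passed. With each library left out, GLS2 without glucose ranged from -0.54 to 0.21 (0.23 in experiment 2 alone), GOT1 without glucose from -0.000302 to 0.053, and the difference between effects of GLUL from -0.10 to 0.24. The cause was not tested.

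Leaving out a library that is the only KMT2D-WT library of its experiment drops that experiment from the genotype comparison. The lone KMT2D-WT library of an experiment was assumed to vary like the other libraries of the fit. GLS2, at 0 to 40 counts per library, is limited by depth.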

Other observations

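The wider list was also counted by role. Without glucose, 5 of 6 mitochondrial carriers and malate dehydrogenases tested were higher in KMT2D-KO cells and none lower, as were 4 of 7 tRNA synthetases of these amino acids, where 25.9% of all genes were called higher. With glucose, 1 of 7 in each of these roles was higher, where 13.0% of all genes were. Transaminases other than the members had 4 of 9 higher with glucose and 3 of 9 without. Of the glutamine-consuming amidotransferases, 2 of 10 were higher with glucose, and without glucose 5 of 10 were higher and 1 lower. Of genes for plasma membrane transport, 4 of 10 were higher with glucose, and 4 of 9 were higher and 1 lower without. Of those for glutamate, proline and glutathione, 4 of 12 were higher and 1 lower with glucose, and 5 and 1 of 12 without. Of the aspartate-consuming enzymes and the urea cycle, 2 of 8 were higher and 1 lower with glucose, and 1 of 7 each way without. Over all genes, 24.9% were called lower without glucose and 11.7% with glucose. The calls depend on the block. With experiment left out of the fit, 7 genes of the whole list were called without glucose and 0 with glucose. The roles were only counted, and whether they differed from each other was not tested.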
